A study of Mus musculus with 2 samples.

Results

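Large internal exons are uncommon in mouse protein-coding genes, and each one offers a stretch of coding or untranslated sequence longer than a ChIP fragment with intron on either side. The regions described here were 2453 internal exons of at least 500 bp in 2107 protein-coding genes of chromosomes 1 to 19. They were chosen from GENCODE release M21 as exons that were neither first nor last in the longest transcript of the gene and that had at least 500 bp of intron on each side. They were 2453 of 159242 internal exons of any length, in 17212 genes. Of all internal exons, 3390 reached 500 bp with introns of any length, and 94417 of any length had introns of 500 bp on both sides. Each exon was set against the 500 bp upstream and the 500 bp downstream of it, in the direction of the gene, so that exon and flanks shared their place in the gene.

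The series used ChIP-seq, the sequencing of DNA recovered with an antibody against a histone mark, to map trimethylation of histone H3 at lysine 36 (H3K36me3) in unstimulated bone marrow-derived macrophages (BMDM) of C57BL/6J mice. It has 1 group of 2 samples, biological replicates 1 and 2, with the sex and age of the animals not collected. Per the labels, each library used 10 ng of DNA and a size range of 350 to 480 bp. The labels list the replicates as 2 biosamples but give both the same donor, so their spread may be technical only, and with 2 samples of 1 group no test over samples was possible. The exons of a replicate are not replicates of one another, and no p-value is given for them.

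H3K36me3 is laid down on the nucleosomes of transcribed gene bodies, mainly by the methyltransferase Setd2, which rides with elongating RNA polymerase II. Its known readers carry PWWP or chromo domains, among them the DNA methyltransferase Dnmt3b and the acetyltransferase scaffold Brpf1, and the mark is known to be denser over exons than over introns of the same gene, in relation with both nucleosome density and splicing. Most internal exons are about the size of a single nucleosome, whereas a large exon holds several nucleosomes and must still be recognised by the splicing machinery at both ends.

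The measure throughout is the percent of bases lying under deposited H3K36me3 peaks. Replicate 1 had 32098 peaks covering 28.5 Mb and replicate 2 had 58505 peaks covering 79.4 Mb, so levels are read within a replicate. The lists hold no read counts and sequencing depth is unknown, so an exon at 0% had no called peak and is not shown to lack the mark. All 9 macrophage genes examined had at least 20% of the gene under peaks in replicate 2. In replicate 1 this held for 5 of them, and Cd68 and Lyz2 had no peak. The 5 T cell, 4 B cell, 4 neutrophil, 4 fibroblast and 3 neuron genes examined had none in either replicate, and of 3 erythroid genes only Epb42 had one, over 0.975% of its body in replicate 1 and 2.75% in replicate 2.

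The ends of 8 exons show what the regions are. The first 4 are exons that peaks covered far more than their flanks, the next 2 are exons that peaks covered less than either flank in replicate 1, and the last 2 are very long exons without a peak. Each line gives 60 bases of GRCm38 (mm10) across a splice site, read in the direction of the gene, with exon bases in capitals and intron bases in lower case.

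Nsd1 acceptor, chr13:55245488-55245547, plus strand: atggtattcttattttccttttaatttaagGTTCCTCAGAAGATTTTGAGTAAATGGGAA
Nsd1 donor, chr13:55248048-55248107, plus strand: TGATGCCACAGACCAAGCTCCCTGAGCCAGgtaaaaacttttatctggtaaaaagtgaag
Alpk1 acceptor, chr3:127681423-127681482, minus strand: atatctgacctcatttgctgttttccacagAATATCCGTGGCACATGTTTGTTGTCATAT
Alpk1 donor, chr3:127679331-127679390, minus strand: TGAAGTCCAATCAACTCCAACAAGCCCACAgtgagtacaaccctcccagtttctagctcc
Brpf1 acceptor, chr6:113314561-113314620, plus strand: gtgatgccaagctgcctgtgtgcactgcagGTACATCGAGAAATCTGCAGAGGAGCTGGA
Brpf1 donor, chr6:113315521-113315580, plus strand: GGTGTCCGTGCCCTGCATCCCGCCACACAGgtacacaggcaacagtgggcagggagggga
Sos1 acceptor, chr17:80434123-80434182, minus strand: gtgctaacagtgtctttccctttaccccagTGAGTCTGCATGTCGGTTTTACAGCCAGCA
Sos1 donor, chr17:80433467-80433526, minus strand: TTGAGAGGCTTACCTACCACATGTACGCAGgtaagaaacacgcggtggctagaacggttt
Thrap3 acceptor, chr4:126178528-126178587, minus strand: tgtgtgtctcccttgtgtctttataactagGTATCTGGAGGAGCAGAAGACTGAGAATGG
Thrap3 donor, chr4:126177832-126177891, minus strand: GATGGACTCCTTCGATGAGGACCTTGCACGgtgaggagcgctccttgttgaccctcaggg
Sash1 acceptor, chr10:8730407-8730466, minus strand: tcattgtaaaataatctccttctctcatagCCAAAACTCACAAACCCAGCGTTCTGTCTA
Sash1 donor, chr10:8729298-8729357, minus strand: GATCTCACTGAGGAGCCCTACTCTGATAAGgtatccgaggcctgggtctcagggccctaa
Muc16 acceptor, chr9:18648026-18648085, minus strand: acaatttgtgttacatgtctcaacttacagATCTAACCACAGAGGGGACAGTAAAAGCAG
Muc16 donor, chr9:18636482-18636541, minus strand: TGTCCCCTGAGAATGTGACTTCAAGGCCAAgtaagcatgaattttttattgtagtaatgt
Cmya5 acceptor, chr13:93098400-93098459, minus strand: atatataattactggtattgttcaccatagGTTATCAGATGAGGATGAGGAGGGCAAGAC
Cmya5 donor, chr13:93089090-93089149, minus strand: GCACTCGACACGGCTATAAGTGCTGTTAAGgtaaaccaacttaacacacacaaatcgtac

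All 8 acceptors end their intron in ag and all 8 donors begin it with gt, and the covered and uncovered exons shown are alike in this. Not all exons named below are: the intron after the exon of Unc13b, without a peak, begins with gc. The intron after the exon of Setd1b, covered less than its upstream flank in both replicates, begins with at. Over all members, 2449 of 2453 acceptors had AG and 2430 donors had GT, with GC at a further 18 donors. The sequence class of the splice site therefore hardly varied among the members.

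The exons had a median length of 813 bp, and the longest, in Muc16, was 11544 bp. Their median rank in the transcript was 4, and 791 of them (32.2%) were the transcript's exon 2. Of all members, 1740 (70.9%) were wholly coding, 691 were partly coding and 22 were non-coding. The length was a multiple of 3 in 974 exons (39.7%), against 39.9% of the 91964 internal exons under 500 bp with introns of the same minimum. Base composition separated exon and flanks. The median GC content was 52.3% in the exons and 43.5% in their flanks, the median repeat content was 3.41% in the exons and 19.1% in the flanks, and the median number of CpG per 100 bp was 2.35 in the exons and 0.9 in the flanks. The host genes were long, with a median of 50.7 kb against 17.6 kb for all coding genes of these chromosomes. Of the 2107 hosts, 160 (7.59%) had at least 20% of the gene body under peaks in both replicates, close to 8.04% of 20807 coding genes, and 52.5% of hosts had no peak against 59.7% of coding genes.

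Did H3K36me3 peaks lie over large exons more than over the sequence beside them? They did in both replicates. In replicate 1, peaks covered 11.4% of exon bases and 6.93% of flank bases. In replicate 2, they covered 27.4% of exon bases and 19.0% of flank bases. The exon was ahead of its flanks by 4.45 percentage points in replicate 1 and by 8.44 points in replicate 2, a mean of 6.45 ± 2.82 points (SD, n = 2), with an exon to flank ratio of 1.64 in replicate 1 and 1.45 in replicate 2. The smaller exons showed a narrower difference: those under 500 bp had 10.4% of exon bases and 9.17% of flank bases covered in replicate 1, and 24.5% of exon bases and 22.3% of flank bases in replicate 2. This contrast between large and small exons has the same direction in both replicates, without a test.

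The flanks were not alike. Exons had 11.4% of bases covered in replicate 1, against 5.48% in the upstream flank and 8.39% in the downstream flank. In replicate 2, they had 27.4% covered, against 16.0% upstream and 21.9% downstream. The side towards the gene's start was thus the lower of the flanks in both replicates over all members. In the 229 exons of 2000 bp or more it was the higher, with 7.17% upstream and 6.45% downstream in replicate 1 and 20.8% and 17.1% in replicate 2. Among smaller exons the downstream flank came near the exon, which had 10.4% of bases covered against 10.1% downstream in replicate 1 and 24.5% against 24.3% downstream in replicate 2.

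In the average over all members, coverage climbed across the acceptor and declined across the donor over the whole width of the flanks, with no step at the splice site. In bins of 50 bp, replicate 1 had 4.54% of bases covered at the far end of the upstream flank, 7.04% in the last bin before the exon and 10.2% from 200 bp into the exon. Replicate 2 had 13.1%, 21.6% and 26.3% in those bins. On the far side, coverage 150 to 100 bp before the donor was 11.5% in replicate 1 and 27.8% in replicate 2, and at the outer end of the downstream flank it was 6.69% in replicate 1 and 18.5% in replicate 2. The exons of 1000 bp or more differed upstream in replicate 1. They had 6.25% at 150 to 100 bp before the exon, 6.14% in the last bin before it and 7.54% in its first bin. In replicate 2 these bins had 19.2%, 22.9% and 24.5%. The peak borders come from fragments of 350 to 480 bp, so these slopes are not a measure of how sharply the mark itself changes.

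**Figure D1:**
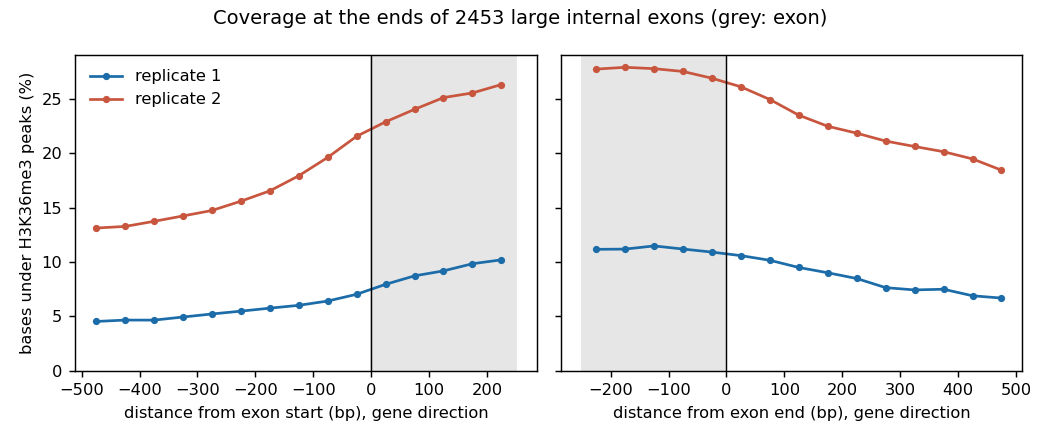
Percent of bases under H3K36me3 peaks in bins of 50 bp around the start (left) and end (right) of 2453 large internal exons, in the direction of the gene, with 1 line per replicate and the exon shaded grey. Both replicates are higher inside the exon than in the outer flanks, and the upstream side starts lower (4.54% and 13.1%) than the downstream side ends (6.69% and 18.5%).

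Wider windows showed how far the exon stood above its introns. For the 1064 exons with introns of at least 2 kb on both sides, the last 250 bp of the exon had 9.74% of bases covered in replicate 1 and 24.8% in replicate 2. The first 250 bp of the exon had 6.70% in replicate 1 and 22.1% in replicate 2. Upstream, the 250 bp next to the exon had 2.52% in replicate 1 and 14.4% in replicate 2, and the window 2 kb away had 2.55% and 5.98%. Downstream, the 250 bp next to the exon had 8.43% in replicate 1 and 21.2% in replicate 2, and the window ending 2 kb away had 2.34% and 8.92%. In replicate 1 the windows between these upstream ends had 1.59% to 2.28%, so coverage there changed little up to the exon and was higher within it. Downstream, the coverage declined over more than 1000 bp in both replicates.

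**Figure D2:**
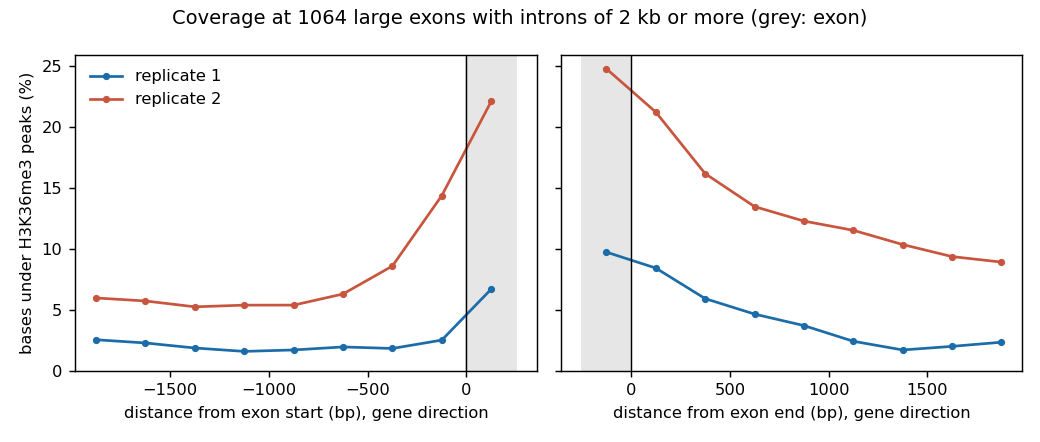
Percent of bases under peaks in bins of 250 bp around the start (left) and end (right) of the 1064 large exons whose introns both reach 2 kb, with 1 line per replicate and the exon shaded grey. The exon end (9.74% in replicate 1, 24.8% in replicate 2) stands above the intron 2 kb downstream (2.34% and 8.92%).

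Where the introns were long enough, the same layout of a long middle window with short flanks was placed wholly inside the neighbouring introns. There was 1 fixed placement, with the nearer flank beginning 500 bp from the exon, a step chosen after seeing the data. This layout fitted beside 720 exons in 679 genes. In replicate 1 the exons had 9.10% of bases covered and their flanks 4.08%, while the middle windows had 1.01% and their flanks 1.19% in the upstream intron, and 1.68% and 2.76% in the downstream intron. In replicate 2 the exons had 24.5% and their flanks 13.5%, while the middle windows had 3.72% and their flanks 4.01% in the upstream intron, and 8.86% and 9.86% in the downstream intron. The excess of the middle window over its flanks was present at the exons and not at either intron placement. In the downstream intron, the flank nearer the exon had 4.08% in replicate 1 and 12.3% in replicate 2, and the farther one 1.43% and 7.38%. That placement lay on the decline away from the exon, so the lack of an excess there says little.

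The summits of the peaks, which are single positions, were also denser in the exons. Per kb of sequence, replicate 1 had 0.137 summits in the exons and 0.0648 in the flanks, and replicate 2 had 0.232 in the exons and 0.0868 in the flanks. Over covered bases, the enrichment that the authors gave each peak averaged 3.43 in exons and 3.38 in flanks in replicate 1, and 4.57 in exons and 4.57 in flanks in replicate 2. A peak has a single enrichment value, which a peak spanning exon and flank lends to both, so these averages cannot show whether the signal differs between them.

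Peaks at these exons were shorter in replicate 1 than in replicate 2. Of 511 replicate 1 peaks touching a member exon, 205 (40.1%) had at least 80% of their length inside it and 129 (25.2%) reached beyond a flank, with a median enrichment of 3.22 for those inside and 3.39 for those reaching beyond. Of 930 such replicate 2 peaks, 250 (26.9%) lay at least 80% inside the exon and 456 (49.0%) reached beyond a flank, with a median enrichment of 3.82 and 4.58. The median peak touching an exon was 816 bp long in replicate 1 and 1412 bp in replicate 2.

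Exon by exon, an exon was called above its flanks when its covered percent exceeded that of each flank by at least 20 points. In replicate 1, 157 exons were above both flanks (background 2.17% of internal exons of any length) and 20 were below both (background 0.622%). In replicate 2, 216 were above both flanks (background 2.07%) and 18 were below both (background 1.1%). Both replicates called 41 exons above (background 0.189%) and 3 below (background 0.0413%), and 0 exons were called in opposite directions. The 41 were 1.67% of the members, 26.1% of the exons above in replicate 1 and 19.0% of those above in replicate 2. Of the 94417 background exons, 91964 were under 500 bp, with a median length of 126 bp. The median peak was 743 bp long in replicate 1 and 987 bp in replicate 2. A peak longer than the exon it covers must reach into the flanks, so this background is not matched for exon length. The part of length in these differences was not tested.

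The replicates called largely different exons above their flanks, and the state of these exons in the other replicate was counted. Of the 157 exons above their flanks in replicate 1, 41 were above in replicate 2 as well, 98 were at least 50% covered there with a flank within the margin, 8 were under 50% covered and 10 had no peak in exon or flanks. Of those 98, 97 had a flank at least 50% covered. Of the 216 exons above in replicate 2, 139 had no peak in exon or flanks in replicate 1. A further 15 were at least 50% covered there with a flank within the margin, and 21 were under 50% covered. Exons above in replicate 1 were thus mostly covered together with a flank in replicate 2, and exons above in replicate 2 mostly had no peak in replicate 1.

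The replicates shared more of the exons covered at 50% or more. There were 276 such exons in replicate 1 (background 10.4%) and 700 in replicate 2 (background 24.5%), and 256 in both (background 9.13%), which is 10.4% of the members, 92.8% of the exons so covered in replicate 1 and 36.6% of those in replicate 2. Most exons had no peak at all, 2024 in replicate 1 and 1660 in replicate 2, whereas 67 were covered from end to end in replicate 1 and 380 in replicate 2. Of the 91964 exons under 500 bp, 81487 and 68459 had no peak, and 8213 and 20651 were covered from end to end. Windows were then taken as covered at 50%, with the share of exons under 500 bp as background. This background has the same limit: most of its exons are far shorter than a peak, which must then reach into a flank. Replicate 1 had 98 members (4.00%, background 0.594%) with the exon alone covered and 33 (1.35%, background 4.63%) with the exon and both flanks. Replicate 2 had 125 (5.10%, background 0.457%) with the exon alone and 278 (11.3%, background 17.0%) with all 3 windows. The exon with its downstream flank was covered in 96 members in replicate 1 (3.91%, background 3.16%) and 213 in replicate 2 (8.68%, background 4.77%). The exon with its upstream flank was covered in 49 (2.00%, background 1.97%) and 84 (3.42%, background 2.12%). The reverse picture, both flanks covered and the exon not, was found for 17 members in replicate 1 (0.693%, background 0.337%) and 12 in replicate 2 (0.489%, background 0.640%). It was thus above background in replicate 1 and below it in replicate 2.

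The 10 exons with the widest lead over their flanks among those covered at 50% in both replicates came from genes of varied function. The exon 2 of Mga, a MAX-binding transcription factor, had 85.9% of its 1128 bp covered in replicate 1 and 100% in replicate 2. Its upstream flank had 0% in replicate 1 and 12.8% in replicate 2, and its downstream flank 0% and 0.4%. The replicate 1 peak began 66 bp into the exon and ended 93 bp before its end. The replicate 2 peak began 64 bp before the exon and ended 2 bp after it.

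Alpk1, the kinase that senses the bacterial sugar ADP-heptose, has an exon of 2092 bp (chr3:127679361-127681452) that was covered over 95.3% in replicate 1 and 100% in replicate 2. Its upstream flank had 0% and 4.6%, and its downstream flank 29.2% and 14.8%. In replicate 2 the peak began 23 bp before the exon and ended 74 bp after it, with an enrichment of 5.30. In replicate 1 the peak began 99 bp into the exon and ended 146 bp after it. The 10 exons were picked for their lead over the flanks, so peak borders near the exon ends follow from that choice.

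Nsd1 encodes an enzyme that itself methylates lysine 36 of histone H3. Its exon 5 (2560 bp, chr13:55245518-55248077) was covered over 58.8% in replicate 1 and 100% in replicate 2, with flanks at 0% in replicate 1 and at 5.2% upstream and 10.4% downstream in replicate 2. The replicate 1 peak sat within the exon, starting 761 bp into it and ending 295 bp before its end, and the replicate 2 peak overran it by 26 bp at the start and 52 bp at the end.

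Brpf1, whose PWWP domain reads H3K36me3, had 79.7% of its exon 3 (960 bp, chr6:113314591-113315550) covered in replicate 1 and 100% in replicate 2. Its upstream flank had 25.0% in replicate 1 and 24.6% in replicate 2, and its downstream flank 0% and 18.6%. Rubcn, a regulator of autophagy and of LC3-associated phagocytosis, had 100% of a 534 bp exon covered in both replicates. Its upstream flank had 49.4% in replicate 1 and 7.8% in replicate 2, and its downstream flank 11.2% and 7.6%. Here the flank overlap was larger in replicate 1, the replicate with fewer peaks.

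The signalling genes of the set followed the same outline. Map3k4, a kinase upstream of p38 and JNK, had 84.5% of a 1358 bp exon covered in replicate 1 and 100% in replicate 2, with flanks at 0% in replicate 1 and at 7.0% upstream and 55.6% downstream in replicate 2. Sos1, an exchange factor for Ras, had 66.6% and 100% of a 656 bp exon covered, with flanks at 0% in replicate 1 and at 18.8% upstream and 30.6% downstream in replicate 2. Senp5, a SUMO protease, had 92.1% and 100% of a 1526 bp exon covered, with flanks at 0% in replicate 1 and at 53.4% upstream and 44.0% downstream in replicate 2. In these genes the flanks were bare in replicate 1 and partly covered in replicate 2.

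The last of the 10 were Agtpbp1, a carboxypeptidase that trims glutamates from tubulin, and Oma1, a protease of the inner mitochondrial membrane. The Agtpbp1 exon was covered over 100% in replicate 1 and 92.3% in replicate 2, with its upstream flank at 12.6% and 0% and its downstream flank at 55.2% and 30.6%. The Oma1 exon, of 507 bp, was covered over 84.8% and 89.3%, with its upstream flank at 0% in both replicates and its downstream flank at 19.8% and 46.6%.

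**Figure D3:**
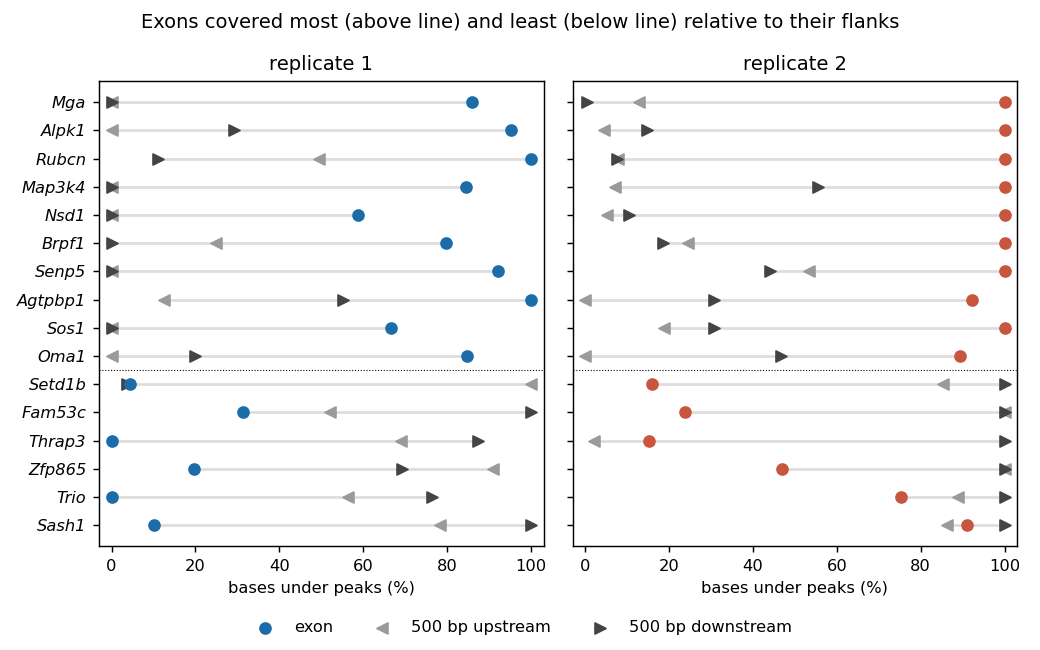
Percent of bases under peaks in the exon (circles), the 500 bp upstream (left-pointing triangles) and the 500 bp downstream (right-pointing triangles) for 16 exons, in replicate 1 (left) and replicate 2 (right). Above the dotted line are the 10 exons with the widest lead over their flanks, which were covered over 58.8% to 100%, and below it the 6 with the widest deficit, of which Sash1 and Trio were largely covered in replicate 2 (91.1% and 75.4%).

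At a few exons the peaks lay on either side. Bclaf1, Fam53c and Zfp865 were below both flanks by the margin in both replicates. In 2 of these 3, annotated exon of another transcript or gene lay in a flank, so their flanks were not all intron. The same held for 589 members (24.0%). Such exon took up 500 flank bases at Zfp865. Zfp865, a zinc finger gene, had 19.6% of its 3217 bp exon covered in replicate 1 and 46.9% in replicate 2, with its upstream flank at 91.0% and 100% and its downstream flank at 69.2% and 100%. Fam53c had 31.3% and 23.7% of the exon covered, with its upstream flank at 52.0% and 100% and its downstream flank at 100% in both replicates. Bclaf1, an RNA-binding factor outside the rule for named genes, had 45.9% and 45.5% of the exon covered, with its upstream flank at 100% and 81.0% and its downstream flank at 88.6% and 69.4%.

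Other exons were bare beside covered flanks in 1 replicate only. Thrap3, a factor in RNA processing, had 0% of the exon covered in replicate 1 against 69.0% upstream and 87.4% downstream, while in replicate 2 the exon had 15.2%, the upstream flank 2.2% and the downstream flank 100%. The other of the 2 members in Thrap3 had 87.9% in replicate 1 and 67.8% in replicate 2. Trio had 0% of the exon covered in replicate 1 and 75.4% in replicate 2. Sash1, a scaffold of Toll-like receptor signalling, had 10.1% in replicate 1 and 91.1% in replicate 2. Their flanks were covered in both replicates, for Trio over 56.4% and 89.0% upstream and 76.4% and 100% downstream, and for Sash1 over 78.2% and 86.2% upstream and 100% in both downstream. Setd1b, a histone methyltransferase, had 4.37% and 15.9% of its exon 12 covered. The upstream flank was at 100% and 85.2% and the downstream flank at 3.8% and 100%. The annotated intron after this exon does not begin with GT, so this exon border is uncertain. Setd1b has 4 members, of which 1 was at least 50% covered in replicate 1 and 3 in replicate 2. Of the 6 exons with the widest deficit, GC content was 66.4% for Setd1b, 65.4% for Trio, 65.2% for Fam53c, 65.0% for Zfp865 and 58.9% for Sash1, above the members' median of 52.3%, and 51.4% for Thrap3, below it. Annotated exon of another transcript or gene took up 500 flank bases at Trio and 284 at Thrap3. The part of base composition and of such exons in these cases was not tested.

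Among the 6 longest exons of different genes, those of Muc16 (11544 bp, a mucin), Fsip2 (9659 bp, of the sperm tail), Cmya5 (9310 bp, of muscle), Xirp2 (9265 bp, of muscle) and Unc13b (8367 bp, of synaptic vesicle release) had 0% in exon and flanks in both replicates. The sixth, in the transcriptional repressor Spen (8020 bp, chr4:141471370-141479389), had 38.6% of the exon covered in replicate 1 and 84.6% in replicate 2. Its upstream flank had 100% in both replicates and its downstream flank 0% and 100%. The genes with most members, Col6a3 with 11 exons and Col6a5 with 8, encode collagen VI chains of the extracellular matrix and had 0% in every exon.

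A covered host could also hold a large exon without a peak. Ep400, a chromatin remodeller, Brd2, a bromodomain protein, and Tmf1, a Golgi protein, each had at least 20% of the gene body under peaks in both replicates and no peak in a large exon 2 of 1370, 1295 and 1199 bp. Of the 187 members in hosts with at least 20% of the body covered in both replicates, 68 had no peak in the exon in replicate 1 and 20 in replicate 2. In these 187, exons had 47.8% of bases covered and flanks 33.3% in replicate 1, and exons 82.3% and flanks 66.9% in replicate 2. In the other 2266 members, exons had 8.48% and flanks 4.76% in replicate 1, and exons 23.0% and flanks 15.0% in replicate 2. The exon led in both kinds of host.

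How did coverage depend on the exon's length and place? By length, the lead over the flanks was 3.55 points in replicate 1 and 6.69 in replicate 2 at 500 to 749 bp (n = 1039). It was 4.24 and 7.81 points at 750 to 999 bp (n = 585), and 4.36 and 11.2 points at 1000 to 1999 bp (n = 600). At 2000 bp or more (n = 229) it was 5.49 and 7.87 points. Exons of 100 to 199 bp, the most usual size, had a lead of 1.20 points in replicate 1 and 2.13 in replicate 2, and those of 300 to 499 bp had 2.09 and 4.00. The lead was thus wider in each class of large exon than in each class of smaller exons, in both replicates. Just inside the length minimum, at 500 to 549 bp, exons had 9.62% and flanks 6.73% in replicate 1, and exons 28.0% and flanks 22.2% in replicate 2. Just outside it, at 450 to 499 bp, exons had 12.5% and flanks 7.63%, and exons 27.8% and flanks 23.1%, so the lead did not start at 500 bp. The distance from the middle of the exon to its flanks grows with exon length, and its part in these differences was not tested.

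**Figure D4:**
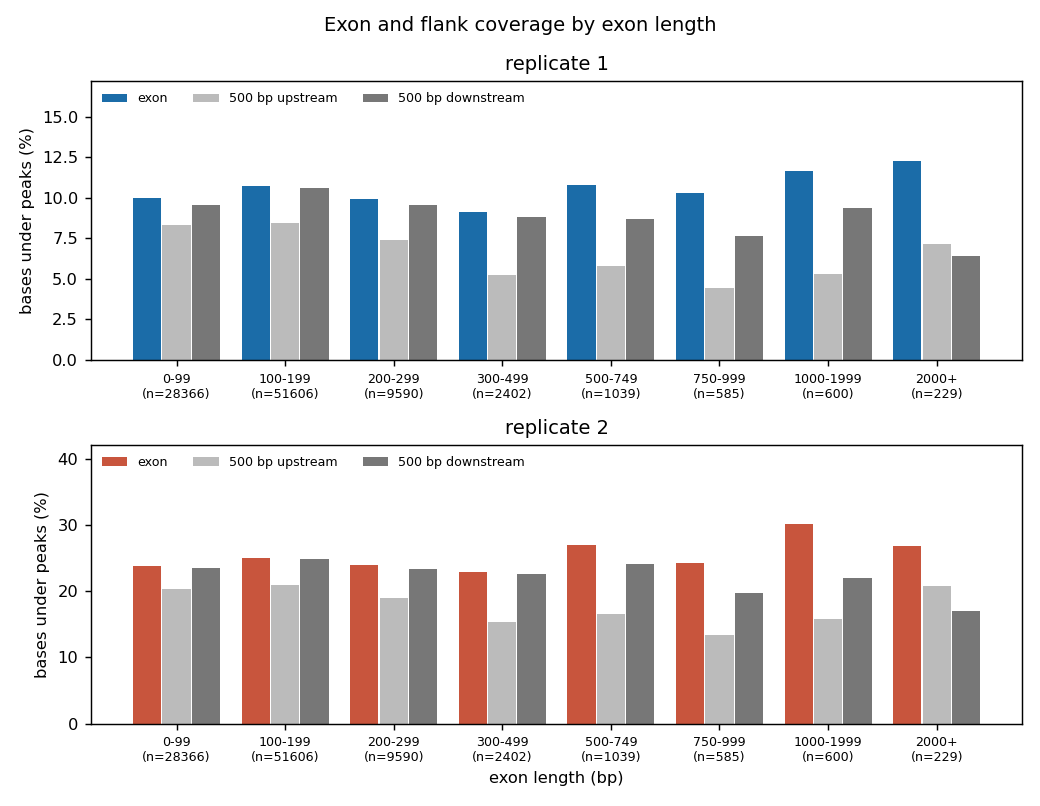
Percent of bases under peaks in the exon (coloured), the 500 bp upstream (light grey) and the 500 bp downstream (dark grey) for internal exons in 8 length classes, in replicate 1 (top) and replicate 2 (bottom), with the number of exons below each class. The downstream flank nearly equals the exon up to 499 bp and lies below it from 500 bp, for example with 12.3% in the exon against 6.45% downstream at 2000 bp or more in replicate 1.

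By position, the gene body was cut into 5 segments of 20% from start to end, and the exon led its flanks in every segment. In replicate 1, exons of segment 1 had 5.92% covered against 3.01% in their flanks, those of segment 3 had 13.0% against 7.17%, and those of segment 5 had 12.0% against 9.04%. In replicate 2, exons had 18.2% against 10.3% in segment 1, 33.1% against 22.9% in segment 4 and 28.7% against 24.9% in segment 5. The lead was thus smaller in segment 5 (2.92 points in replicate 1, 3.79 in replicate 2) than in segment 3 (5.83 and 9.86). In replicate 1 it was as small in segment 1 (2.90 points), where replicate 2 had 7.84.

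The upstream flank was lowest near the gene's start. In segment 1 it had 0.757% of bases covered in replicate 1 and 4.63% in replicate 2, while the downstream flank had 5.27% and 16.0%. The 791 exons at rank 2 had a like pattern, with 6.21% of exon bases, 0.509% upstream and 5.08% downstream in replicate 1, and 18.0%, 4.51% and 15.5% in replicate 2. At these second exons the downstream flank was covered nearly as much as the exon and the upstream flank far less. The exons of rank 3 or later had 13.5% covered against 8.91% in their flanks in replicate 1, and 31.3% against 23.2% in replicate 2, so the lead did not rest on second exons.

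**Figure D5:**
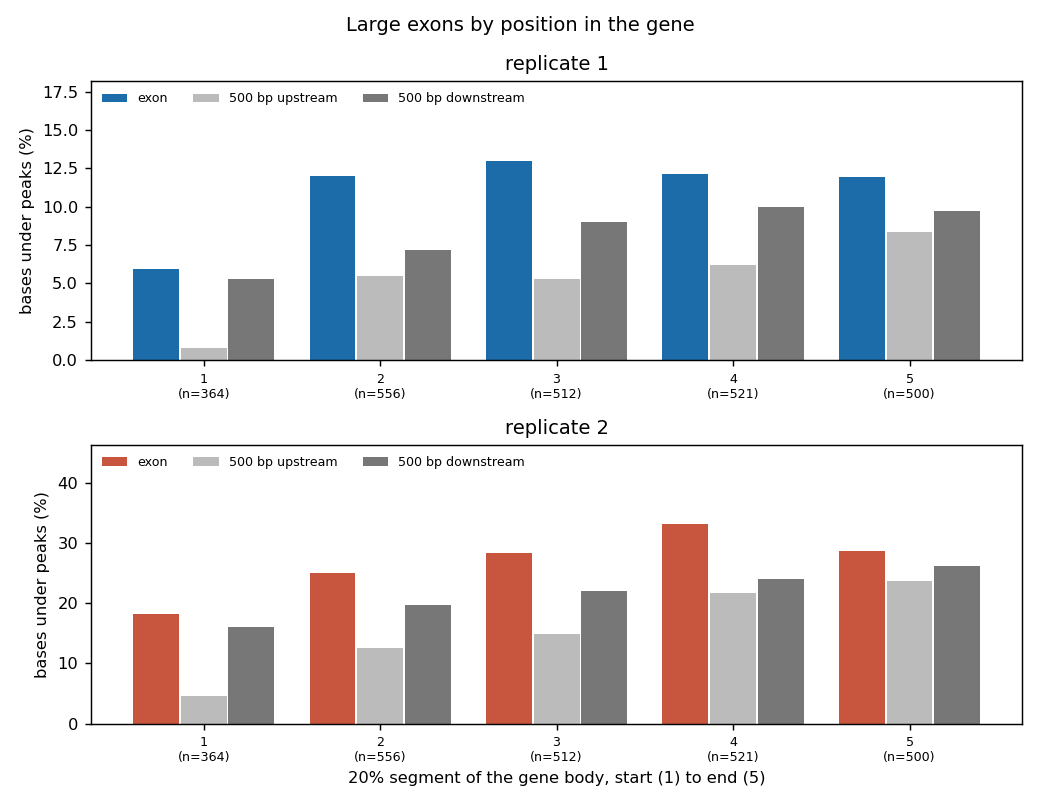
Percent of bases under peaks in the exon (coloured), the 500 bp upstream (light grey) and the 500 bp downstream (dark grey) of large exons in each 20% segment of the gene body, in replicate 1 (top) and replicate 2 (bottom). The upstream flank is lowest in segment 1 (0.757% and 4.63%). The exon's lead over its flanks is 2.90 and 7.84 points in segment 1 and 2.92 and 3.79 points in segment 5.

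Base composition, repeats and annotation were compared within the members. In the 472 exons whose GC content was within 5 points of that of their flanks, exons had 10.4% and flanks 5.92% in replicate 1, and exons 22.2% and flanks 16.1% in replicate 2. The lead was 4.48 points in replicate 1 and 6.11 in replicate 2 there, and 4.72 and 8.79 points in the 951 exons whose GC content was higher than in the flanks by over 10 points. In the 10 exons whose GC content was lower than in the flanks by over 5 points, the difference over pooled bases was −2.08 points in replicate 1 and −3.65 in replicate 2, while the mean of the differences of single exons was 4.62 and 6.55 points. Only 2 of these 10 had a peak in exon or flanks in replicate 1 and 3 in replicate 2, so they give no clear direction. Where under 10% of the flank bases were repeats (509 exons), the lead was 3.39 points in replicate 1 and 7.31 in replicate 2, and where at least 30% were (569 exons) it was 6.79 and 10.8. The lead was present where GC content was nearly equal and where repeats were few, and it was wider where the flanks held more repeats. In the exons with at least 30% flank repeats, exon coverage was 13.2% in replicate 1 and 30.2% in replicate 2. It was 11.0% and 25.8% in those under 10%. Flank coverage was 6.39% and 19.4% against 7.60% and 18.5%, so it was lower with more repeats in replicate 1 only.

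Wholly coding exons led by 4.47 points in replicate 1 and 7.88 in replicate 2, and partly coding ones by 4.44 and 9.87. The 22 non-coding exons had 0% of exon bases covered, against 1.23% of flank bases in replicate 1 and 0.441% in replicate 2. Only 1 of these 22 had a peak in exon or flanks in each replicate, so they give no clear direction. Of exons crossed by at least 2 coding transcripts, 1127 were kept by all of them and 455 were skipped or altered in some. The kept exons had 14.6% covered against 7.90% in their flanks in replicate 1, and 33.8% against 22.5% in replicate 2. The others had 11.8% against 7.04%, and 27.1% against 19.0%. Between these 2 sets, the kept exons had both the higher coverage and the wider lead in both replicates, a description without a test. The comparison leaves out 871 exons crossed by only 1 coding transcript. These had 7.39% covered against 5.64% in their flanks in replicate 1, and 20.0% against 14.4% in replicate 2, lower than either set.

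Gene by gene, 261 hosts held at least 2 members. In replicate 1, 195 of them had no member covered at 50%, 12 had all members covered and 54 had some. In replicate 2, 147 had none, 61 had all and 53 had some. The last member of the gene had the higher coverage in 41 hosts and the first member in 41 in replicate 1, and in replicate 2 these counts were 56 and 37. Large exons of a single gene could thus differ. Of the 5 members of Mga, exon 3 had 0% in both replicates, while exon 8 had 64.8% in replicate 1 and 100% in replicate 2. Kmt2c, a histone methyltransferase named after its values were seen, had 54.4% and 99.3% at exon 14, 0% and 100% at exon 38, 27.2% and 90.7% at exon 43, and 84.6% and 100% at exon 52.

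Grouped by the function of the host, large exons differed in coverage between gene lists, which are described by counts without a test. The exons named from the lists are the highest and lowest members, and other members of the same gene could differ. In replicate 1 the last member of Setdb1, Pcnt and Prrc2c and the first member of Aff4, Med13 and Cep350 had 0%. In replicate 2 these members had 100%. In the chromatin regulator list, 36 of 85 exons were at least 50% covered in both replicates, against 10.4% of all members, and 8 were above both flanks in both, against 1.67%. Their exons had 34.8% of bases covered and their flanks 18.8% in replicate 1, and exons 66.7% and flanks 50.1% in replicate 2. The 8 exons, named after their values were seen, lay in Brpf1, Brpf3, Crebbp, Kmt2c, Mga, Nsd1, Phf3 and Tcf20. The median exon of the list had 26.8% covered in replicate 1 and 97.5% in replicate 2, while the median of all members was 0% in both.

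Among the chromatin regulators that the rule named, Setd2, the main writer of the mark, had 100% of its 670 bp exon 15 covered in both replicates. Its upstream flank had 28.6% in replicate 1 and 100% in replicate 2, and its downstream flank 52.2% and 89.2%. Setdb1, a methyltransferase of repressed chromatin, had 100% in both, with its upstream flank at 41.4% and 73.8% and its downstream flank at 100% and 55.6%. Arid1b, a subunit of a remodelling complex, had 100% of exon and flanks in both replicates. The lowest exons were exon 4 of Tet1, a DNA dioxygenase, and exon 3 of Wiz, a partner of histone methyltransferases, at 0% in exon and flanks. In Wiz this held for that exon and not for the gene, since 2 of its 3 members were at least 50% covered in replicate 2, although none was in replicate 1.

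RNA processing genes had 10 of 34 exons (29.4%) at 50% in both replicates, against 10.4% of all members. Above both flanks were 7 in replicate 1, 4 in replicate 2 and 0 in both, against 1.67% of all members in both, and 1 was below in both. Their exons had 44.2% of bases covered and flanks 29.6% in replicate 1, and exons 79.5% and flanks 60.8% in replicate 2. In Acin1, a protein that joins the exon junction complex, the exon was at 100% in both replicates with flanks from 54.4% to 100%. The Prrc2c exon was covered over 98.4% in replicate 1, with its upstream flank at 34.4% and its downstream flank at 0%, and over 100% in exon and flanks in replicate 2. The Zc3h11a exon was at 100% in both, and those of Smg6, a nuclease of nonsense-mediated decay, and Rbm6, a splicing factor, were at 0%. In replicate 2 the covered exons of these 3 genes lay in peaks that took in at least 93.8% of each flank, while in replicate 1 the flanks ranged from 0% to 100%.

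The list of NLR and other innate sensors and regulators had 18 of 58 exons (31.0%) at 50% in both replicates, against 10.4% of all members. It had 2 (3.45%) above both flanks in both, against 1.67%, those of Nfatc3 and Nlrc4, named after their values were seen. Nlrc4, an inflammasome sensor, had 74.4% of its 1995 bp exon covered in replicate 1 and 73.7% in replicate 2, with its upstream flank at 25.8% and 15.0% and its downstream flank at 0% and 19.4%. Rnf213, an interferon-inducible ubiquitin ligase, had 100% in the 3603 bp exon and both flanks in both replicates. Bcl6, a repressor of inflammatory genes, had 100% in the exon in both, with flanks from 86.6% to 100%. Inpp5d, the phosphatase SHIP-1, had 100% in the exon in both, with its upstream flank at 29.0% and 100% and its downstream flank at 80.4% and 100%. Nlrp12, known from neutrophils and dendritic cells, and Zeb1, a repressor, had 0%.

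Coactivators and nuclear receptor cofactors had 11 of 49 exons (22.4%) at 50% in both replicates, against 10.4% of all members. They had 1 (2.04%) above both flanks in both, against 1.67%, in Ncoa1, named after its values were seen. Med13, of the Mediator kinase module, had 100% in the exon in both replicates, 100% and 89.4% upstream, and 14.4% and 9.6% downstream. Aff4, of the super elongation complex, had 100% in the exon in both, 16.4% and 50.4% upstream, and 19.2% and 100% downstream. Atxn7, of the SAGA complex, had 100% in the exon in both, with flanks from 53.4% to 100%. The transcription factors Hivep3 and Sall1 had 0%. Among the covered exons of this list, the flanks thus ranged from nearly bare to fully covered.

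The other lists were near or under the 10.4% of all members at 50% in both replicates. Zinc finger genes chosen by name had 9 of 77 exons at 50% in both (11.7%) and 3 above both flanks in both (3.90%). Cytoskeleton and centrosome genes had 9 of 89 (10.1%) and 2 (2.25%), where 1.67% of all members were above in both. DNA repair and chromosome maintenance genes had 1 of 30 (3.33%) and 0, with 0 above both flanks in replicate 1 and 7 in replicate 2. Zfp445, a regulator of imprinted loci, had 100% of a 551 bp exon covered in both replicates, 54.8% and 10.0% upstream, and 43.2% and 78.6% downstream. Wapl, the cohesin release factor, was the 1 repair and maintenance exon, with 92.9% and 100% in the exon, 0% and 11.2% upstream, and 100% and 3.2% downstream. Cenpc1, of the centromere, had 47.5% and 100% in the exon, 0% and 14.8% upstream, and 37.4% and 11.0% downstream. Slx4 had 38.1% and 100% in the exon, 25.4% and 77.2% upstream, and 0% and 100% downstream. Mki67 and Knl1, genes of dividing cells with exons of 6836 and 4497 bp, had 0%.

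In the cytoskeleton and centrosome list, Golga3 and Pcnt had 100% in the exon in both replicates with flanks from 62.4% to 100%, and Cep350 had 94.1% in replicate 1 and 100% in replicate 2 with flanks from 95.0% to 100%. Map1b, a neuronal microtubule protein, and Tacc2 had 0%. None of the 94 exons of synaptic, adhesion and matrix genes, which serve here as genes of other cell types, had a covered base in exon or flanks in either replicate. The list was chosen with earlier results of these data known, so it is not an independent control. The 3 longest of these exons were in Muc16, Apob and Bsn. Elsewhere in the Bsn gene peaks did lie, over 0.557% of its body in replicate 1 and 4.96% in replicate 2.

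The lead of the exon was positive in both replicates and in the authors' pooled list (7.20 points) and replicated list (6.89 points). The count of 41 exons moved with the windows, members and peaks used: it was 22 with flanks of 250 bp, 67 of the 1801 exons with introns of at least 1000 bp when flanks were 1000 bp, and 11 with peaks of −log10 q of at least 5, with 1, 2 and 0 exons below.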

How the data were processed

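H3K36me3 ChIP-seq of unstimulated BMDM gave 4 peak lists on mm10, deposited by the authors: 1 for each of 2 replicates, a pooled list and a list of replicated peaks. Per the file headers, the lists of single replicates hold peaks kept in pseudoreplicates. For the aligner and the peak caller, names and versions were not given in the sources used here. The deposited score is a display value and was not used further. The deposited enrichment of each peak is a ratio over the background of the authors' caller. The deposited −log10 p and −log10 q values are also the authors', and −log10 q was used as a filter. No read counts were used, so depth is unknown and values carry no counting interval.

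Exons came from GENCODE release M21, with the longest transcript of a gene taken by exonic length, and windows were intersected with the merged peaks of each list. Sequence, GC and repeat content (lower-case bases) came from the RefSeq GRCm38.p6 assembly, the same assembly as mm10. Percentages over many exons pool their bases. An exon was above or below its flanks at a margin of 20 points against each flank, in each replicate. Background percentages are over the 94417 internal exons of any length with introns of at least 500 bp.

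Members and the 8 gene lists were chosen with earlier results of these data known. Named exons were the 10 with the widest lead among those at 50% in both replicates, the 6 with the widest deficit among those with flanks at 50%, the 6 longest, the 3 longest without a peak in hosts at 20%, the 3 highest and 2 lowest of each list, and the 2 genes with most members. Python 3.11.15, numpy 2.4.6, pandas 2.3.3 and matplotlib 3.10.9 were used, and the counting steps were tested on simulated data.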

Additional observations from a re-analysis of the deposited data

How the results depend on the processing

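The lead of exon over flanks was positive under all 19 alternatives tried, from 4.19 points (peaks with −log10 q of at least 5) to 8.98 points (flanks of 1000 bp together with introns of at least 1000 bp, 1801 exons), and with a single replicate it was 4.45 to 8.44 points. More exons were above than below both flanks in all 21 settings that gave both counts. The counts themselves moved, with 41 above, 3 below and 256 covered at 50% as reported. By a single replicate, 157 to 216 were above, 18 to 20 below and 276 to 700 at 50%. In the pooled list the counts were 185, 29 and 745, and in the replicated list 165, 24 and 700. Peaks with −log10 q of at least 5 gave 11, 0 and 81, and peaks with an enrichment of at least 3 gave 1 below. Exons of at least 1000 bp gave 23, 1 and 87, and exons of at least 300 bp gave 5 below and 466 at 50%. Flanks of 250 bp gave 22 above and 1 below, flanks of 1000 bp with introns of at least 1000 bp 67 above, and flanks free of annotated exons 1 below. Any difference in place of the margin gave 74 and 9, a margin of 50 points 10 and 0, and coverage of at least 80% gave 128 exons. Wholly coding exons gave 26 above. In settings chosen after seeing the data, exons within 5 GC points of their flanks gave 5, 0 and 42, exons with flank repeats under 10% gave 8, 1 and 54, and exons of rank 3 or later gave 26 above. Subsets hold fewer exons, and the cause of the other moves was not tested. No paired analysis was possible because the 2 replicates form 1 group. Depth is unknown, peak borders carry the fragment size, and exons of 1 gene share their host.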
